A study of Rattus norvegicus with 4 samples.

Results

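Egr1, Klf4, Klf9 and Klf10 encode zinc-finger transcription factors, and their transcripts were followed in rat soleus, the slow-twitch calf muscle that holds posture. The rule took every probe set annotated to 1 of these 4 genes, which gave 11 probe sets, 4 for Egr1, 2 for Klf4, 2 for Klf9 and 3 for Klf10, out of 4736 genes with a single-symbol probe set. The 4 genes were chosen by their log2 differences between unloaded and control pools on these same arrays, so their values below are a description and carry no p-value. Unloaded rats, all female, could not stand on the hindlimbs during 10 h per day for 11 days, and control rats, also female, moved normally in their cages for the same 11 days. Each group had 2 Affymetrix arrays, and each array was hybridised with soleus RNA pooled from 4 to 5 rats. A replicate is therefore a pool, and differences between single animals were not measured. The labels name no strain and no age.

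EGR1 is the best known of the immediate early factors, genes that growth factors, stretch and contraction switch on within minutes through ERK kinases and the serum response factor SRF, without new protein synthesis. Krüppel-like factors (KLFs) share a carboxy-terminal block of zinc fingers that binds GC-rich and CACCC sequences, and they differ in the domains that recruit coactivators or corepressors. KLF4 restrains proliferation and responds to shear stress in endothelium, KLF9 is induced by glucocorticoid and thyroid hormone, and KLF10 is an early target of transforming growth factor beta (TGF-beta) that mostly represses transcription.

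RefSeq sequence before the annotated start (rat assembly GRCr8) was at hand for 3 of the 4 genes. The 250 bases upstream of that start are shown, 5′ to 3′ on the gene's strand, because they set the SRF-type elements of Egr1 beside a second gene that was lower and one that was higher in unloaded pools. They lie at chr18:26736828-26737077 on the plus strand for Egr1, chr5:75078593-75078842 on the minus strand for Klf4 and chr1:230126396-230126645 on the plus strand for Klf9. Capitals mark CArG boxes (the SRF element), CACCC and CGTCA (the core of the cyclic AMP response element), each searched on both strands.
Egr1: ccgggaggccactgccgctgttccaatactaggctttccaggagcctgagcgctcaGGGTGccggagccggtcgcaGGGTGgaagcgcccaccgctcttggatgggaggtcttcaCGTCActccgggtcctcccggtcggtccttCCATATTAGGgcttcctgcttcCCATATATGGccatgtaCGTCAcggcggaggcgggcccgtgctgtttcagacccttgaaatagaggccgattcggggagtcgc
Klf4: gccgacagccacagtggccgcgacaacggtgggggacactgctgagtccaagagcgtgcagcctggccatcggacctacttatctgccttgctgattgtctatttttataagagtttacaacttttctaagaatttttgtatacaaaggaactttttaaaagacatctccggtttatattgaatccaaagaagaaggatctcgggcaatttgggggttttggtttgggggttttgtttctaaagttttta
Klf9: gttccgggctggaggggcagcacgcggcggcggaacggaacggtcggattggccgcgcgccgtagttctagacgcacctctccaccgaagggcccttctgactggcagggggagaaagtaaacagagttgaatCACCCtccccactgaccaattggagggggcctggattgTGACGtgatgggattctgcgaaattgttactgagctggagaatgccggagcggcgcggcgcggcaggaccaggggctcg
The Egr1 window held 2 CArG boxes, 105 to 96 and 83 to 74 bases before the start, while 1.5% of all 33469 RefSeq windows of this length held at least 1 and 0.0209% held 2 or more. It also held 2 CGTCA and 2 CACCC matches. The Klf9 window held 1 CGTCA and 1 CACCC match and no CArG box, and the Klf4 window held none of these 3. CGTCA occurred in 18.2% and CACCC in 49.2% of all windows, and no capitals of different motifs overlapped. The GC box GGGCGG (30.5% of all windows), the E-box CACGTG (5.59%) and the EGR1 binding sequence GCGNGGGCG (4.29%) were in none of the 3 windows. TGANTCA (6.34% of all windows) was found once in Klf9, where it overlaps the CACCC match, and TATAAA (12.9%) was found at 2 positions in Klf4 alone. CCAAT (34.0%) had 1 match in Egr1, 3 in Klf9 and 0 in Klf4. The matches describe the letters of these windows, and whether soleus uses the annotated starts was not tested. The annotated start of Klf4 in particular may not be the one used in muscle. The lack of matches in its window is therefore not read as a lack in its promoter.

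The 4 genes divided by direction. Egr1 and Klf4 signals were lower, and Klf9 and Klf10 signals were higher, in the unloaded pools on each of their probe sets. In all 11 probe sets the unloaded and control pools did not overlap, with 6 lower and 5 higher. Non-overlap was common, at 25.3% lower and 25.5% higher among the 5257 probe sets tested, so by itself it is no result about these genes. A probe set was tested when its mean signal was at least 20.975, the 40th percentile of the table, and 10 of the 11 met that filter. Of these 10, 4 passed an adjusted p of 0.05 over all tested probe sets in the limma fit, 2 lower (Klf4) and 2 higher (Klf10). Among all tested probe sets, 2.66% passed as lower and 2.59% as higher. The choice of genes used this contrast, so nothing is read from these counts. Log2 fold changes below are unloaded minus control on log2(signal + 9), with the standard error (SE) of the fit, and plain fold values are ratios of mean signals. Probe sets differ in their probes, so signals are compared between arrays and not between probe sets.

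**Figure D1:**
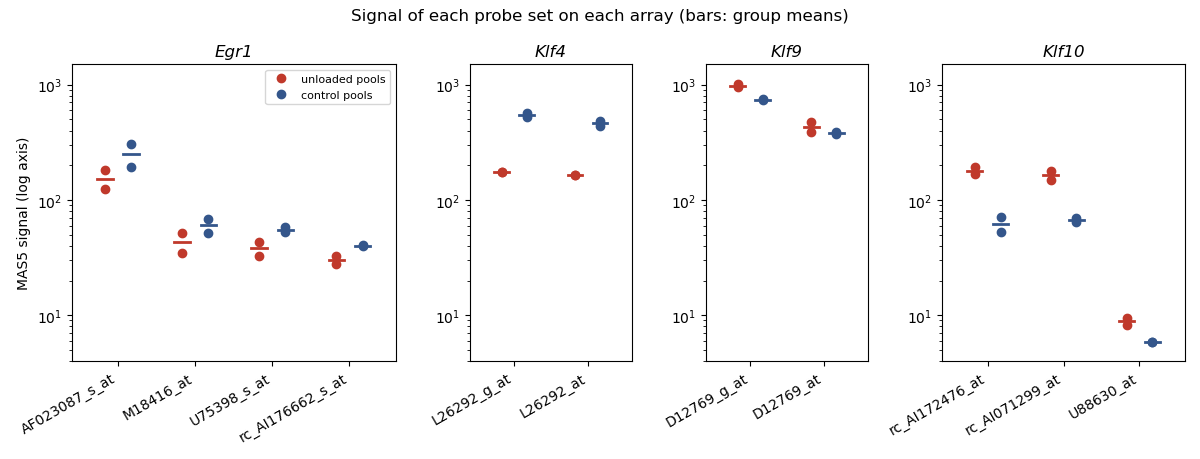
MAS5 signal (log axis) of each probe set of Egr1, Klf4, Klf9 and Klf10, named by its Affymetrix identifier, on 2 unloaded arrays (red, left) and 2 control arrays (blue, right). Points are single pools and bars are group means. Klf4 stands lowest relative to controls, at 174.5 and 175.2 against 521.2 and 572.4, while Klf10 stands higher on both of its bright probe sets and on the brightest Egr1 probe set the higher unloaded pool, at 182.9, nearly meets the lower control pool, at 192.2.

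Egr1 was lower on all 4 probe sets, by less than the other lower gene, and its pools were uneven. The brightest probe set (AF023087_s_at) read 123.7 and 182.9 in unloaded pools 1 and 2, against 192.2 and 305.9 in control pools 1 and 2. The higher unloaded pool almost met the lower control pool. The means were 153.3 ± 41.9 and 249 ± 80.4 (SD, n = 2 each), 1.62-fold lower in unloaded pools (log2 fold change -0.66, SE 0.24). Within groups the pools had an SD of 0.42 log2, larger than that of 96.2% of tested probe sets, whose median was 0.13.

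The 3 dimmer Egr1 probe sets gave the same direction with smaller differences. M18416_at read 34.4 and 51.2 in unloaded pools against 52.1 and 68.5 in control pools (-0.43, SE 0.21). U75398_s_at read 32.9 and 43.2 against 52.7 and 58.0 (-0.46, SE 0.18). On rc_AI176662_s_at the unloaded pools read 27.8 and 32.6 and the control pools 39.7 and 40.6 (-0.33, SE 0.18). In each of the 4, pool 2 read above pool 1 in both groups, by 0.18 to 0.53 log2 in unloaded pools and 0.03 to 0.65 in control pools. The labels do not say that pools of the same number were handled together. None of the 4 passed the threshold in the fit. The brightest gave -0.33 without control pool 2 and -0.39 without unloaded pool 1, against -0.98 without control pool 1 and -0.92 without unloaded pool 2. The size of the value thus depended on single pools, with its sign kept. It passed in 1 of 12 alternatives, the one with the pool number as a block (SE 0.11).

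Klf4 was the lowest of the 4 relative to controls, and its pools were close. Probe set L26292_g_at read 174.5 and 175.2 in unloaded pools and 521.2 and 572.4 in control pools. Both unloaded pools lay far below both control pools, with means of 174.8 ± 0.495 and 546.8 ± 36.2 (SD, n = 2 each). This was 3.13-fold lower in unloaded pools (log2 fold change -1.59, SE 0.10). The second probe set, L26292_at, read 163.2 and 164.3 in unloaded pools and 441.9 and 483.8 in control pools, 2.83-fold lower (-1.45, SE 0.11). Both were designed on 1 GenBank entry, so they are not independent readings. The brighter one ranged from -1.66 to -1.47 over 12 alternatives and passed in each. In bulk RNA of this kind, fewer cells of a type and less RNA per cell cannot be told apart.

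Klf9 was slightly higher in unloaded pools. Probe set D12769_g_at read 946.0 and 1011.3 in unloaded pools and 756.0 and 730.2 in control pools, means of 978.6 ± 46.2 and 743.1 ± 18.2 (SD, n = 2 each). The gap between the groups was wider than the gap between pools of a group, at 1.32-fold higher (log2 fold change 0.39, SE 0.09). On D12769_at the unloaded pools read 391.7 and 472.9 and the control pools 371.0 and 390.1, so the lower unloaded pool and the higher control pool were nearly equal (0.17, SE 0.12). These probe sets too come from 1 GenBank entry. Neither passed the threshold in the fit. The brighter one ranged from 0.34 to 0.44 over 12 alternatives and passed in 1, with the filter at the 60th percentile, while the dimmer one ranged from 0.04 to 0.31 and passed in 0.

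Klf10 was the most raised of the 4. Probe set rc_AI172476_at read 191.4 and 166.8 in unloaded pools and 53.2 and 71.5 in control pools, means of 179.1 ± 17.4 and 62.35 ± 12.9 (SD, n = 2 each). Both unloaded pools lay well above both control pools, 2.87-fold higher (log2 fold change 1.41, SE 0.16). Probe set rc_AI071299_at, from another GenBank entry, read 178.8 and 148.1 in unloaded pools and 64.3 and 69.5 in control pools, 2.44-fold higher (1.18, SE 0.14). The third, U88630_at, was too dim to be tested, at 8.3 and 9.5 in unloaded pools and 5.9 on both control arrays, and on a fit without the filter it gave 0.26 (SE 0.14). Its signals lay near or below the offset of 9, which understates its log2 difference. Without unloaded pool 1, the log2 fold changes of the bright probe sets were 1.31 (SE 0.21) and 1.05 (SE 0.17) and neither passed, while both passed in the 11 other alternatives.

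The distance between the genes is a measure that a common scale factor per array hardly touches, because it is taken within an array. Relative to the mean of the control arrays, Klf10 stood above Klf4 by 3.10 and 2.90 log2 in unloaded pools 1 and 2, while control pools 1 and 2 lay at -0.12 and 0.12. This was the widest of the 6 pairs of genes, and the difference between their log2 fold changes ranged from 2.61 to 3.16 over the settings tried. Klf9 stood above Klf4 by 1.94 and 2.03 in unloaded pools, with control pools at 0.09 and -0.09. Klf10 stood above Egr1 by 2.43 and 1.70, with control pools at 0.14 and -0.14. Klf9 stood above Egr1 by 1.27 and 0.83, against control pools at 0.35 and -0.35. The genes that share a direction were also apart. Egr1 stood above Klf4 by 0.67 and 1.20 (control pools at -0.26 and 0.26), and Klf10 above Klf9 by 1.16 and 0.87 (control pools at -0.21 and 0.21). These distances used the brightest probe set of each gene, and on these no order of the 4 changes was reversed in any setting tried. The genes were chosen by their differences on these same arrays, and every setting reuses those arrays. The order and the distances are therefore a description only.

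**Figure D2:**
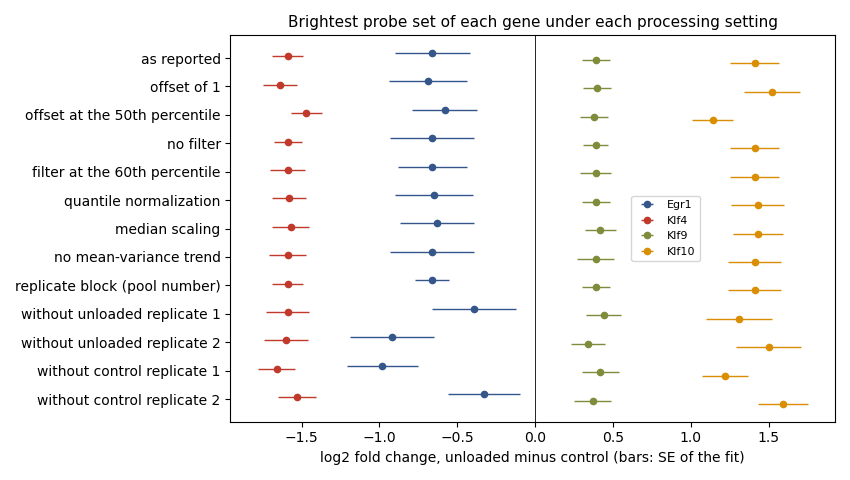
Log2 fold change, unloaded minus control, of the brightest probe set of each gene (x axis, bars are the SE of the fit) under each processing setting (rows). Klf4 stays between -1.66 and -1.47 and Klf10 between 1.14 and 1.59, while Egr1 spreads from -0.98 to -0.33 when single pools are left out.

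Few close relatives could be read here. Of 22 further KLF and SP genes looked for, 4 had a single-symbol probe set, and 1 of these passed the filter. That gene was Klf6, a factor induced by tissue injury, which fell to 94.2 and 88.1 in unloaded pools, against 149.0 and 143.0 in control pools (log2 fold change -0.63, SE 0.12, limma adjusted p = 0.028). Its pools did not overlap, but it did not pass when any 1 pool was left out. Klf13 read 6.6 and 10.2 in unloaded and 3.2 and 4.4 in control pools, Sp1 19.6 and 13.3 against 17.1 and 18.3, and Sp4 11.3 and 13.4 against 12.4 and 11.4. These 3 lay under the filter, and no change is read from them.

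Among 6 relatives and corepressors of EGR1, 5 had a single-symbol probe set and Egr4 alone was tested. Its brighter probe set read 65.1 and 94.9 in unloaded pools and 106.8 and 111.2 in control pools (-0.43, SE 0.18, limma adjusted p = 0.228). Its dimmer one went the other way, at 40.1 and 41.3 against 26.8 and 17.6 (0.69, SE 0.21, limma adjusted p = 0.115), so Egr4 has no settled direction. Egr2 (9.3 and 12.3 in unloaded, 14.7 on both control arrays), Egr3 (2.4 and 3.0 against 4.3 and 3.7) and the corepressor Nab1 (12.5 and 10.6 against 11.3 and 12.7) were under the filter. The 3 probe sets of Wt1 were under it as well.

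The other early response genes leaned the way of Egr1 and Klf4. A gene is read here by its brightest tested probe set, and over all 3152 tested genes 2.54% rose, 2.16% fell and the median log2 difference was 0.01. At an unadjusted limma p under 0.05, 10.7% of all tested genes were higher and 9.23% lower, which is the background for the unadjusted counts of each list. Of 27 early genes listed, 18 were tested, 9 fell, 0 rose (1 higher and 11 lower at an unadjusted limma p under 0.05) and 9 did not pass, with a median of -0.87. This list had been seen to shift in these data, so it is not independent evidence. Those that fell, with the smallest p first, were Nr4a1, Atf3, Fos, Zfp36l1, Dusp1, Ier3, Nr4a3, Ccn1 and Nr4a2. Nr4a3 met the filter through its control pools alone, at 31.9 and 9.7 in unloaded pools (mean 20.8) against 154.6 and 224.1. Ccn1 read 36.3 and 12.2 in unloaded pools against 106.6 and 124.3 in control pools. The sizes of these differences rest in part on the offset of 9. Zfp36l1, a zinc-finger protein that binds AU-rich mRNA and not DNA, fell to 795.0 and 705.6 in unloaded pools, against 1454.5 and 1464.1 in control pools (-0.95, SE 0.10, limma adjusted p = 0.00145). Without control pool 2, 5 of the 18 passed as lower. No gene of the list had a log2 difference as high as that of Klf10, and the highest was Fosl2, at 35.8 and 53.9 in unloaded and 17.4 and 20.6 in control pools (0.93, SE 0.22, limma adjusted p = 0.0554), with a dimmer probe set at 6.3 and 8.1 against 46.8 and 7.6.

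Genes of the ERK and SRF route, which carries signals to Egr1, did not pass. Of 21 listed, 6 were tested and 0 passed in limma in either direction (1 higher and 1 lower at an unadjusted p under 0.05), with a median of -0.21. Of 17 known targets of EGR1, some lay under the filter, and no change is read from them. Pdgfa, just short of it, read 9.3 and 9.0 in unloaded and 38.6 and 25.3 in control pools on its brighter probe set. Pdgfb read 20.8 and 17.5 against 17.4 on both control arrays, and Tnf 5.5 and 3.0 against 3.7 and 5.2. The targets tested numbered 10, of which 1 fell, 0 rose and 9 did not pass, with a median of -0.07. The one that fell was Vegfa, the angiogenic growth factor, at 240.0 and 246.9 in unloaded and 377.7 and 387.3 in control pools (-0.63, SE 0.10, limma adjusted p = 0.0122), and it did not pass when any 1 pool was left out. Of 14 genes listed as targets of KLF4, 11 were tested and 0 passed in limma on the brightest probe set (0 higher and 2 lower at an unadjusted p under 0.05), with a median of -0.21. The polyamine enzyme Odc1 gave -0.53 (SE 0.12, limma adjusted p = 0.0513) there and fell on a dimmer probe set, at 130.0 and 163.8 in unloaded and 223.9 and 310.1 in control pools (-0.81, SE 0.18, limma adjusted p = 0.0403). The target lists do not separate genes that a factor raises from genes that it lowers. Their medians thus have no expected sign, and whether Odc1 or Vegfa followed its factor was not tested.

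In the TGF-beta list around Klf10, 13 of 22 genes were tested, 1 fell, 0 rose and 12 did not pass, with a median of -0.13. Smad7, the inhibitory SMAD that TGF-beta itself induces, fell to 11.6 and 14.7 in unloaded pools, against 59.1 and 54.0 in control pools (-1.57, SE 0.19, limma adjusted p = 0.00433). Its unloaded signals lay under the filter, which it met through the control pools alone, so the size of its difference rests in part on the offset of 9. It did not pass without either control pool. In the glucocorticoid and thyroid hormone list around Klf9, 11 of 22 genes were tested, 1 fell, 0 rose and 10 did not pass, with a median of -0.06. Glutamine synthetase, Glul, fell to 1339.7 and 1433.3 in unloaded pools, against 2259.0 and 2212.5 in control pools (-0.69, SE 0.09, limma adjusted p = 0.00476), and also did not pass without either control pool. The glucocorticoid receptor Nr3c1 (-0.05, SE 0.20, limma adjusted p = 0.926) and the thyroid hormone receptor Thra (0.07, SE 0.11, limma adjusted p = 0.777) did not pass. At an unadjusted p under 0.05 the lists of EGR1 targets, TGF-beta and hormone genes held 1, 0 and 1 genes higher and 1, 2 and 1 genes lower.

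**Figure D3:**
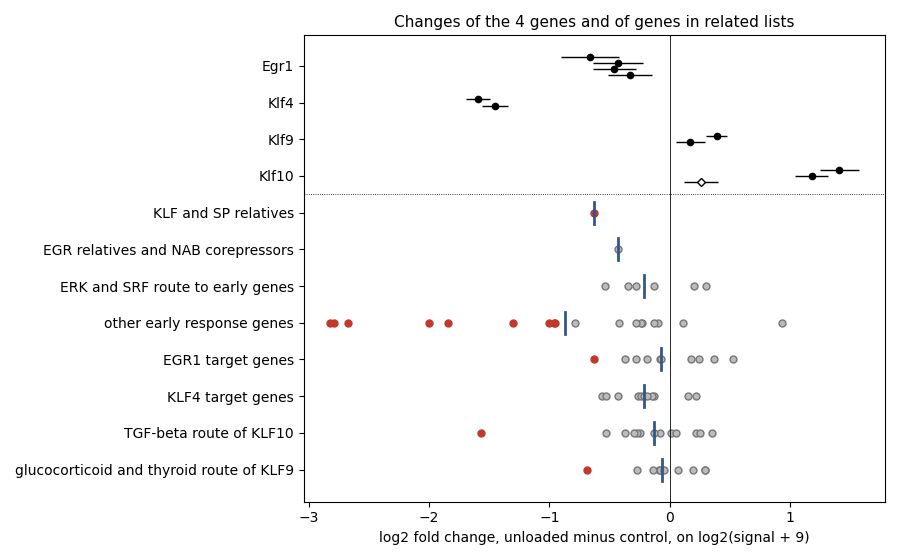
Log2 fold change, unloaded minus control, of every probe set of the 4 genes (top, black, bars are the SE of the fit, the open diamond is the Klf10 probe set too dim to test) and of the brightest tested probe set of each gene in 8 related lists (red passed the limma threshold, grey did not, blue line is the list median). Klf10 at 1.41 and 1.18 lies to the right of every listed gene, and Klf4 at -1.59 and -1.45 lies among the early genes that fell.

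For each gene, the 3 genes with the most similar profile were taken from 3148 others by the root mean square (RMS) difference of log2 signals, each centred on its mean over the 4 arrays. With 4 arrays this mainly matches the size of the group difference and the unevenness of the pools. Egr1 was closest to the AP-1 subunit Junb (RMS 0.08 log2), then Espn (0.14) and Sec14l3 (0.15). The brighter probe set of Junb was also uneven between pools, at 48.2 and 68.1 in unloaded pools and 84.8 and 131.5 in control pools. The dimmer one was uneven in control pools only, at 47.7 and 47.3 against 43.4 and 59.9. Its group difference was small (log2 fold change -0.09, SE 0.18, limma adjusted p = 0.841). Klf4 was closest to Smad7 (0.11), Id1, an inhibitor of basic helix-loop-helix factors (0.16), and the growth factor Fgf1 (0.19). Smad7 read 11.6 and 14.7 in unloaded pools, under the filter, against 59.1 and 54.0 in control pools. The log2 difference of Smad7, and with it this closeness to Klf4, rests in part on the offset. The rank of Smad7 under other offsets was not tested. Klf10 was closest to the cytokine Il15 (0.13), at 366.7 and 409.6 against 126.6 and 176.4, then to the metabolic enzymes Pfkfb1 (0.16) and Gpd1 (0.17). Klf9 had Plcg1, Nup107 and Bend3 at 0.02 each, and its own profile departed from its mean by 0.20, so many genes with a small difference lie near it.

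On the list for slow skeletal muscle, 9 genes were tested and 0 passed in limma (0 at an unadjusted p under 0.05). Myh7, the slow myosin heavy chain, read 9534.3 and 10728.4 in unloaded and 10907.4 and 11198.2 in control pools. A comparison of the groups cannot check the tissue label. Of 45 markers of 7 other cell types, 29 were tested and 0 passed in limma on the brightest probe set (6 higher and 1 lower at an unadjusted p under 0.05). For some types the summed signals did not overlap between groups. By itself this is no result, since 25.3% of single tested probe sets did not overlap as lower and 25.5% as higher. The 5 endothelial markers summed to 349.1 and 407.3 in unloaded pools and 445.4 and 442.6 in control pools. Of these 5, 4 had log2 differences below 0, at -0.63 for Kdr, -0.56 for Nos3, -0.23 for Flt1 and -0.03 for Vwf, with Pecam1 at 0.02, and the median was -0.23. The 3 blood markers summed to 5199.3 and 5107.1 against 4326.1 and 4567.0, and the 5 smooth muscle markers to 5272.4 and 5572.2 against 5118.7 and 5243.5. Most of that last sum is Des, which skeletal muscle also expresses, and the 4 others summed to 1205.3 and 1306 against 968.9 and 1086.7. Most of the blood sum is Hbb, at 4896.6 and 4837.7 in unloaded and 4067.3 and 4365.2 in control pools. A dimmer Acta2 probe set rose (0.82, SE 0.15, limma adjusted p = 0.0221). Sums overlapped between groups for fibroblasts (8589.8 to 10642 against 7865.5 to 8944.3), leukocytes (496 to 590.9 against 424 to 641.7) and adipocytes (1248 to 1461.8 against 1318.7 to 1552.1), and for 2 Schwann cell markers they were 535 and 547.3 against 565.1 and 619.4. Among the fibroblast markers, a dimmer probe set of Dcn rose, at 738.6 and 668.5 in unloaded and 350.3 and 410.6 in control pools (0.87, SE 0.11, limma adjusted p = 0.0054), while its brightest gave 0.41 (SE 0.11, limma adjusted p = 0.083). The leukocyte marker Ptprc was under the filter on its 3 probe sets, at 1.9 to 22.9 in unloaded and 2.6 to 16.2 in control pools. The part of these cells in the signals of the 4 genes was not tested.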

How the data were processed

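The authors deposited 1 table of signal intensity values, made with MAS5 per the submitters' processing notes (version and settings not given in the sources used here). Its trimmed means, leaving out 2% at each end, were 150.2 or 150.3 on all 4 arrays and its medians 33.9 to 35.6, which reflects scaling per array; the number of arrays limits the precision. From 8799 probe sets, 59 Affymetrix controls were left out. Symbols came from the platform annotation, updated by gene ID to RefSeq (GRCr8): 7006 probe sets had 1 symbol, 308 several and 1426 none, and none was named from a probe set with several. Signals were transformed as log2(signal + 9), 9 being their 25th percentile, with no further normalization. The comparison used limma 3.58.1 under R 4.3.3 (lmFit and trended eBayes, 2 residual and 5.80 prior degrees of freedom), with Benjamini-Hochberg adjustment over 5257 probe sets. The fit was tested on simulated data. Nothing in the labels says how the pools were formed, so p-values measure the spread between pools only.

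The genes and the lists were chosen with earlier results of these data known. Named genes were all probe sets of the 4 genes, up to 6 passing genes per list, and a fixed set of relatives and route genes. All 9 early genes that fell are named, 3 of them after their values were seen. Fosl2, Odc1, Pdgfa, Pdgfb, Tnf, the endothelial markers, Acta2, Dcn, Des, Hbb, Ptprc, Myh7 and Wt1 were also named after their values were seen. Of the fixed set, Klf2, Klf3, Klf5, Klf15, Sp3, Nab2 and Srf had no single-symbol probe set here. Alternatives were other offsets and filters, quantile and median normalization, no trend, a block for pool number, single arrays left out, and averaging the probe sets of a gene. Plots were made with matplotlib 3.10.9 (Python 3.11.15).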

Additional observations from a re-analysis of the deposited data

How the results depend on the processing

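Of 437 values recomputed under alternatives, 387 moved by less than the spread between pools or, for counts, by less than 1.5 times. Many of the 387 were list counts that stayed at 0. The 387 also include the brightest Egr1 probe set, from -0.98 to -0.33, since it was measured against its own wide SD of 0.42. The remaining 50 of the 437 moved further. The cause of these 50 moves was not tested, though some alternatives by construction hold fewer samples or more dim probe sets. Of the Klf4 and Klf10 probe sets that passed, 0 changed sign. Some list medians did change sign. The EGR relatives went from -0.43 to 0.13 with the probe sets of a gene averaged. The hormone list went from -0.06 to 0.02 without unloaded pool 2 and to 0.05 without control pool 2. Probe sets called higher and lower numbered 136 and 140. They were 42 and 48 without a filter, 52 and 61 without a mean-variance trend, and 78 and 87 with the pool number as a block, and with 1 pool left out they ranged from 22 to 43 higher and 38 to 55 lower. Same-numbered pools did not deviate together (correlation -0.0438 across probe sets of the 2 differences between pools), so the block has no support in the labels or in this check. Under it Egr1 kept -0.66 with a smaller SE and passed, and Klf6 did not, leaving 0 KLF and SP relatives called lower. With the offset at the 50th percentile, Klf4 gave -1.47, Klf10 1.14, the KLF and SP median was -0.52, the early gene median -0.66, and 1 KLF4 target was called lower. Without a filter the medians were -0.03 (KLF and SP), -0.15 (EGR relatives) and -0.42 (early genes), with 0 KLF and SP genes lower. With the probe sets of a gene averaged, the EGR relatives gave 0.13, the early genes -0.66 and the TGF-beta list -0.26. Without a trend, 0 genes were called lower in the KLF and SP, EGR1 target and hormone lists. With the filter at the 60th percentile, 1 EGR1 target was higher, 1 KLF4 target lower and 0 TGF-beta genes lower, Smad7 being then too dim. For signals near or under the offset, as for the third Klf10 probe set and unloaded Smad7, the log2 difference is set in part by the offset. Median scaling called 1 early gene higher. With 1 pool left out, 0 KLF and SP relatives and 0 EGR1 targets were called lower, TGF-beta and hormone genes ranged from 0 to 1 and early genes from 5 to 9.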
